A study of Mus musculus with 14 samples.

Results

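The spleens of mice given IL-23 in the ear skin were set against the spleens of mice given imiquimod on the back, 7 of the 14 samples of a study of psoriasis-like skin inflammation, chosen by their treatment labels. All 14 mice were female wild type BALB/c animals, 6 to 8 weeks old, and each gave 1 poly(A) RNA library. Of these, 3 mice received recombinant mouse IL-23 by intradermal injection, 1 µg in each ear and 4 times within 7 days (the IL-23-ear group). Imiquimod had been spread on the back of 4 mice as a 5% cream, daily for 5 days (the imiquimod-dorsal group). As background, 3 control mice had petrolatum on back and ears, and 4 mice had the same imiquimod cream on the ear (the imiquimod-ear group). The agent, the skin site, the route and the length of treatment differ together between the IL-23-ear and imiquimod-dorsal groups and cannot be told apart, and no group had injections without IL-23. Samples of a group are labelled as biological replicates from a single batch, and p-values measure the spread between these samples.

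IL-23 is a cytokine made by dendritic cells and macrophages that sustains type 17 T cells, the producers of IL-17A and IL-22. Imiquimod is an agonist of Toll-like receptor 7, which plasmacytoid dendritic cells and B cells carry and which leads to type I interferon. The mouse spleen filters blood in its red pulp and holds lymphocytes in its white pulp, and unlike the human spleen it can also make red cells and granulocytes in adult life, more so under stress. Bulk RNA of such an organ mixes all these cells, so that fewer cells of a type and less RNA per cell cannot be told apart.

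The label of the tissue was checked against spleen genes. Cr2 of marginal zone and follicular B cells, Spic of red pulp macrophages and the spleen transcription factors Tlx1 and Nkx2-5 all had counts in each of the 7 libraries. Genes of the exocrine pancreas, which lies against the spleen, stood out in imiquimod-dorsal replicate 4. There the chymotrypsinogen gene Ctrb1 stood at 94.8 CPM (the gene's counts relative to the library's total, scaled by TMM, edgeR's trimmed mean method), against 0 in the 3 other imiquimod-dorsal libraries. Pancreas genes summed to 529 CPM in that library and to 13.0, 15.2 and 10.4 CPM in IL-23-ear. Their mean log2 CPM was 5.55 in that library, -0.59 and 0.08 in IL-23-ear replicates 1 and 2 and -2.80 in replicate 3. The part of pancreas RNA in other results was not tested. Totals over named genes were 33888595 to 35456180 counts in IL-23-ear and 35024011 to 40289411 in imiquimod-dorsal. Spearman correlations over tested genes, a description of the libraries, were 0.9912 to 0.9926 within IL-23-ear, 0.9906 to 0.9944 within imiquimod-dorsal and 0.9035 to 0.9369 between them. On the first principal component of all 14 libraries, with 56.7% of the variance, IL-23-ear lay between -60.77 and -42.92 and imiquimod-dorsal between 74.11 and 91.28. Within IL-23-ear, replicate 3 stood apart by low red cell genes and high heat shock genes, and replicate 2 by high neutrophil granule genes, so the results on those genes are also given without them.

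In a fit of all 14 libraries with edgeR's quasi-likelihood test, 8651 of 15159 genes (57.1%) differed between the groups at an adjusted p under 0.05, and are called below. Of these, 4107 (27.1%) were higher and 4544 (30.0%) lower in IL-23-ear than in imiquimod-dorsal, and the median log2 difference over all tested genes was 0.005. Changes of 2-fold or more were called for 3040 genes (20.1%), of which 1428 (9.42%) were higher and 1612 (10.6%) lower. Large differences were more often on the lower side, with 186 genes higher and 335 lower by 8-fold or more. The CPM ranges of the groups did not overlap for 9198 genes (60.7%), IL-23-ear being above for 4391 (29.0%) and below for 4807 (31.7%). Scaling by total counts in place of TMM moved the median log2 difference up to 0.281 and the share of higher calls among all calls from 47.5% to 70.1%, and upper quartile scaling moved them to 0.200 and 64.3%. Differences smaller than this shift therefore depend on the scaling, and counts under total count scaling are given beside the lists below in which a count of 5 or more moved by over 1.5 times. For comparison with those list counts, 6752 of all 15159 tested genes were higher and 2881 lower under total count scaling.

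The control libraries show which group stood away from vehicle. Among the 4107 genes higher in IL-23-ear, the control mean was nearer to IL-23-ear than to imiquimod-dorsal for 3824 (93.1%), and among the 4544 lower genes for 4371 (96.2%). Among changes of 2-fold or more the shares were 97.7% and 97.4%. Over all 15159 tested genes, called or not, the control mean was nearer to IL-23-ear for 12526. With IL-23-ear at 0 and imiquimod-dorsal at 1, imiquimod-ear had a median position of 0.375 for the higher and 0.327 for the lower genes. In most differences below, the IL-23-ear spleens thus stood near the controls and the imiquimod-dorsal spleens away from them.

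**Figure D1:**
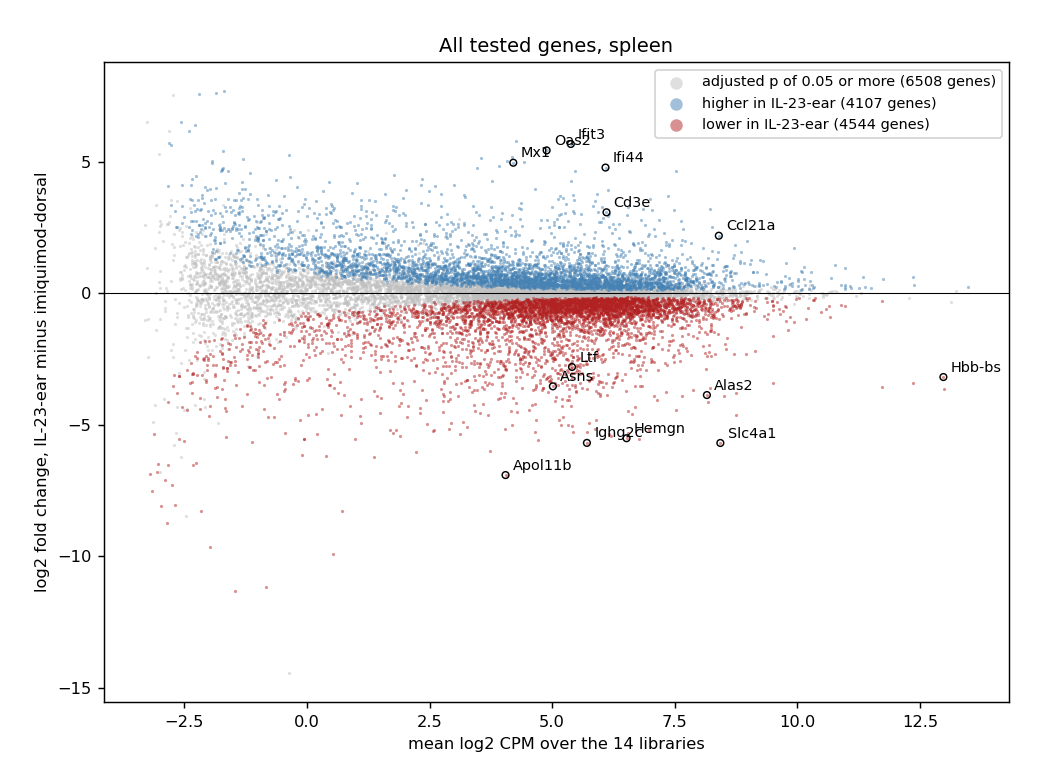
Log2 fold change of each tested gene between IL-23-ear and imiquimod-dorsal (vertical axis) against its mean log2 CPM over all libraries (horizontal axis), with points of called genes coloured and some genes labelled. Of 15159 genes, 4107 were higher and 4544 lower in IL-23-ear, and interferon response genes lie at the top and red cell genes at the bottom.

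**Figure D2:**
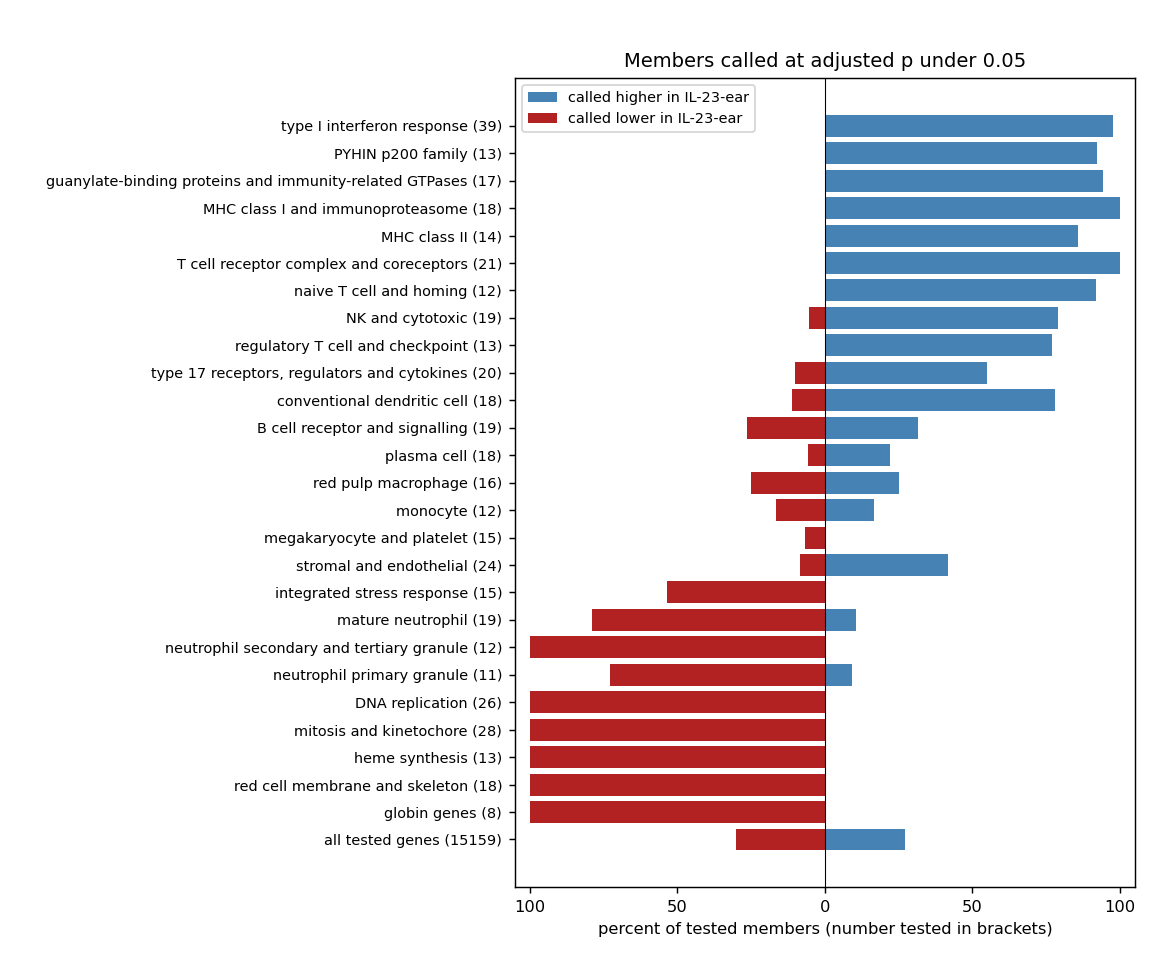
Percent of the tested members of each gene list called higher (right) or lower (left) in IL-23-ear, with the number tested in brackets and all 15159 tested genes as the last bar. The interferon, MHC class I and T cell lists lie to the right, and the division, granule and red cell lists to the left.

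The largest rises in IL-23-ear over imiquimod-dorsal were interferon-stimulated genes, whose products block viral replication or sense nucleic acids. Of 39 tested genes of the type I interferon response list, 38 were higher in IL-23-ear and 0 lower, where 27.1% of all tested genes were higher, and the median log2 difference was 3.23. Of the 12 largest rises among clearly expressed genes, 11 belonged to this list, to the PYHIN family or to the guanylate-binding proteins, and the other was Ifit1bl1, a relative of Ifit1. The level of the list, the mean log2 CPM of its tested genes, was 6.87 to 7.73 in IL-23-ear and 4.01 to 4.51 in imiquimod-dorsal. It was 6.17 to 7.40 in the controls and 4.80 to 5.97 in imiquimod-ear, so the 3 IL-23-ear libraries lay within or just above the control range and the 4 imiquimod-dorsal libraries below both.

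Mx1 (chr16:97248235-97264107, GRCm39, minus strand), a dynamin-like GTPase against influenza viruses of which BALB/c mice are known to carry a truncated allele, stood at 51.1, 117 and 92.7 CPM in IL-23-ear replicates 1, 2 and 3. In imiquimod-dorsal replicates 2, 3, 4 and 5 it stood at 2.16, 2.63, 2.57 and 3.70 CPM. The groups lay far apart, with a log2 difference of 4.97 (standard error, SE, 0.50, adjusted p = 6.1e-06 by edgeR) and control and imiquimod-ear means of 68.5 and 17.7 CPM. Oas2 (chr5:120868398-120887933, GRCm39, minus strand), whose oligoadenylate product activates RNase L, had 106, 177 and 221 CPM against 5.05, 2.63, 2.77 and 4.94 CPM, which is 5.44 on the log2 scale (SE 0.50, adjusted p = 4.0e-06). Ifit3 (chr19:34560899-34566443, GRCm39, plus strand), of the family that binds viral RNA ends, had 164, 398 and 282 CPM against 5.73, 4.03, 4.33 and 7.69 CPM. Its log2 fold change was 5.69 (SE 0.62, adjusted p = 1.2e-05). In each of these genes IL-23-ear replicate 1 was the lowest of its group and still above every imiquimod-dorsal library. Their relatives Ifit3b (log2 fold change 5.81), Ifit1 (5.01), Ifit1bl1 (5.16) and Mx2 (5.06) share sequence with them to different degrees. How reads with several matches were counted is not given in the sources used here.

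The regulators of the response differed too. Irf7, the factor that amplifies type I interferon, had 570, 992 and 936 CPM in IL-23-ear and 39.5, 28.9, 23.3 and 40.5 CPM in imiquimod-dorsal, with a control mean of 603 CPM. Its log2 fold change was 4.65 (SE 0.41, adjusted p = 2.3e-06). Stat2, a transducer of type I interferon, had a log2 fold change of 1.94 (SE 0.17). Isg15, a ubiquitin-like modifier, had 131, 334 and 236 CPM against 66.4, 68.5, 48.8 and 72.4 CPM, a smaller difference of 1.87 (SE 0.40) on the log2 scale. Rsad2, which makes an antiviral nucleotide, was the exception in the list: it had 57.5, 149 and 70.1 CPM in IL-23-ear and 188, 269, 151 and 125 CPM in imiquimod-dorsal. Its ranges overlapped, and its log2 difference of -0.99 (SE 0.66, adjusted p = 0.22) did not pass.

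The promoters of 27 of these 39 genes were found in a RefSeq table of the build GRCm38.p6, and 16 of the 27 (59.3%) held the core of the interferon-stimulated response element (GAAA, any 2 bases and GAAA again) on either strand between 250 bases before and 50 after the start. Among 11450 tested genes with a promoter in the table, 447 (3.9%) held it. Of the 10 matched genes of the T cell receptor list described below, 0 held it, too few genes to tell their share from the 3.9%. A match is a description of letters and not a measured site. The 250 bases before the start of 3 called members follow, on the gene's strand from 5′ to 3′, with matches in capitals. They were picked as the called members with the largest differences among those with a match there, leaving aside families of near-identical genes. Ddx60, an RNA helicase, and Bst2, which tethers budding virus particles, have a pair of matches each, overlapping in Bst2. In Stat2 the match lies far from the start and on the opposite strand. The windows are chr8:61927837-61928086 (plus strand) for Ddx60, chr8:71537473-71537722 (minus strand) for Bst2 and chr10:128270248-128270497 (plus strand) for Stat2.
Ddx60: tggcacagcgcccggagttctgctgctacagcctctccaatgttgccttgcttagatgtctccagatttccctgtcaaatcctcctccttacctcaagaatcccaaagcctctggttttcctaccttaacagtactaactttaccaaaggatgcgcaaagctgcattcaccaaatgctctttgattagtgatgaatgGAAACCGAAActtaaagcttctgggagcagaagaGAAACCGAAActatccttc
Bst2: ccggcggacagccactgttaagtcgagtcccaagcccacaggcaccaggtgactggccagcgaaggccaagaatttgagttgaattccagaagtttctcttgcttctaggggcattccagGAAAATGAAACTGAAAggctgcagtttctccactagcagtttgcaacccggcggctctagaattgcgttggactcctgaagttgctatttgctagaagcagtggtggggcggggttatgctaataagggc
Stat2: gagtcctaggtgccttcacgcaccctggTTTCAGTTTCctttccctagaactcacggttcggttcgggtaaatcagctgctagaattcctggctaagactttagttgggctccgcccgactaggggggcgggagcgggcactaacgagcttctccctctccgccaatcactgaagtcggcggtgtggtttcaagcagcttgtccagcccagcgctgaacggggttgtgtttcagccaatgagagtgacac
The matches began 19 and 53 bases before the start in Ddx60, 124 and 130 in Bst2 and 222 in Stat2. Ddx60 had 48.6, 78.7 and 60.9 CPM in IL-23-ear against 6.41, 6.02, 5.27 and 8.51 CPM in imiquimod-dorsal (log2 fold change 3.26, SE 0.30). Bst2 had 248, 402 and 426 CPM against 44.6, 29.8, 32.5 and 46.5 CPM (3.23, SE 0.26).

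The PYHIN genes, sensors of DNA in one cluster on chromosome 1, were higher for 12 of 13 tested members with a median log2 difference of 2.72. Ifi206 had the largest log2 fold change among them, 5.19 (SE 0.35, adjusted p = 5.2e-07), and Aim2, which starts an inflammasome, was the member that did not pass, with a difference of 0.18. Among guanylate-binding proteins and immunity-related GTPases, which attack vacuoles that hold microbes, 16 of 17 were higher, with a median of 2.18. Gbp10 led with 4.79 (SE 0.44), and Irgm2, at 0.14, did not pass. Members of both families are close copies of each other, so the split of reads between neighbours is uncertain.

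Interferons and their receptors lie upstream of these genes. Of 16 tested interferons, receptors and inducers, 10 were higher and 2 lower, beside 27.1% and 30.0% of all tested genes. Ifnb1 had no count in any of the 14 libraries, which allows up to 3 counts each. Ifng, the type II interferon, was near the detection limit with 0.939, 1.17 and 1.36 CPM in IL-23-ear against 0.823, 0.480, 0.130 and 0.443 CPM (log2 fold change 1.28, SE 0.41, adjusted p = 0.015). Ifnlr1, the specific chain of the interferon lambda receptor, went the other way with 1.98, 3.74 and 2.67 CPM against 15.1, 10.1, 15.2 and 21.8 CPM (-2.48, SE 0.41, adjusted p = 2.0e-04). The type I receptor chains differed by 0.36 for Ifnar1, higher, and by -0.52 for Ifnar2, lower. Tlr7, the receptor of imiquimod, had 81.6, 118 and 108 CPM in IL-23-ear against 26.7, 31.3, 28.1 and 28.6 CPM in imiquimod-dorsal, a log2 difference of 1.83 (SE 0.17, adjusted p = 2.1e-06), with 89.1 CPM as the control mean. Its groups did not overlap, whereas those of Tlr9, the related DNA receptor, did (-0.28, SE 0.19, adjusted p = 0.22). Of the 22 genes of the Toll-like receptor pathway 8 were higher and 1 lower, beside 27.1% and 30.0% of all tested genes, and under total count scaling 15 were higher and 1 lower. The lower gene was Irak3, an inhibitor of the pathway, at -0.86.

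**Figure D3:**
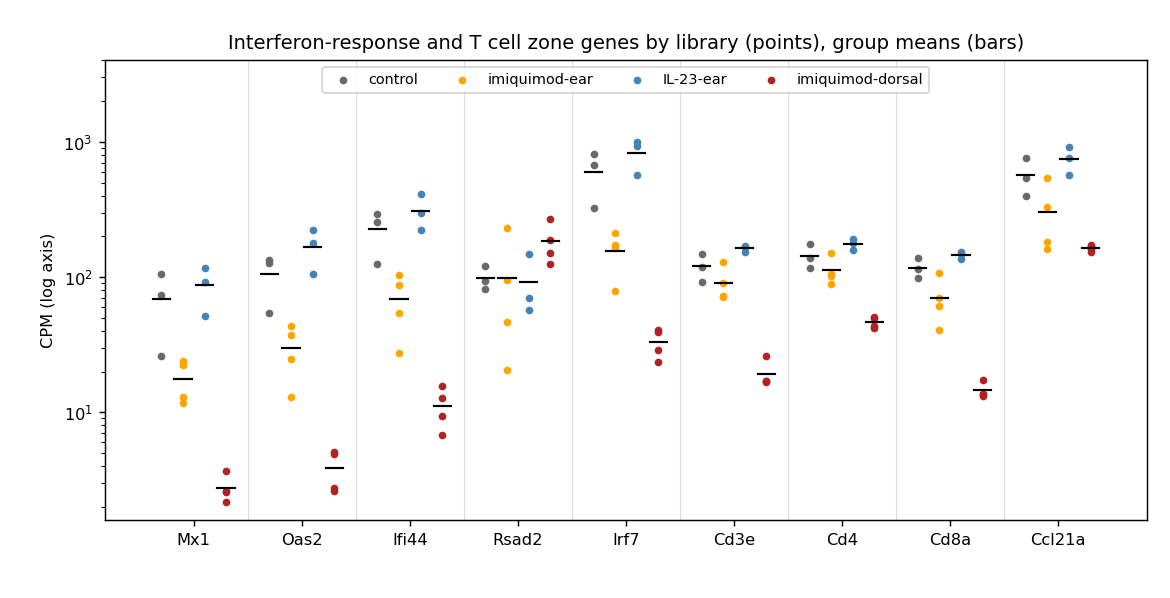
CPM (logarithmic axis) of 9 interferon response and T cell zone genes (horizontal axis) in the 4 groups, with 1 point per library and a short bar at each group mean. For Mx1, the 3 IL-23-ear libraries lie between 51.1 and 117 CPM and the 4 imiquimod-dorsal libraries between 2.16 and 3.70 CPM.

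Antigen presentation genes followed with smaller steps. All 18 tested genes of MHC class I and the immunoproteasome were higher in IL-23-ear, with a median log2 difference of 1.04, and under total count scaling all were on the same side. H2-T23, a non-classical class I gene that presents to NK cell receptors, had 644, 744 and 704 CPM against 267, 241, 227 and 271 CPM (log2 fold change 1.47, SE 0.11, adjusted p = 3.5e-07). Nlrc5, the transactivator of class I genes, differed by 1.72, the peptide transporter Tap1 by 1.07 and B2m, the shared light chain, by 0.95. Of 14 MHC class II genes 12 were higher with a median of 0.55, among them Cd74, the invariant chain, at 0.63 and the costimulator Cd86 at 1.23.

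T cell genes were the other main group on the higher side. All 21 tested genes of the T cell receptor complex and coreceptors were higher in IL-23-ear, with a median log2 difference of 2.77. Variable segments of the receptor followed: 76 of 77 alpha and delta and 19 of 19 beta segments were higher, with medians of 3.14 (3.04 with the 3 segments without a count in imiquimod-dorsal at their lower bound) and 2.87. T cell receptor genes held 0.0811%, 0.0658% and 0.0697% of all counts in IL-23-ear and 0.00962%, 0.00817%, 0.00798% and 0.00796% in imiquimod-dorsal, against a control mean of 0.0570% (SD 0.0124, n = 3). The exact two-sided permutation test of the 2 groups gave p = 0.0571, the smallest that 3 against 4 samples allow.

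Cd3e (chr9:44910037-44920925, GRCm39, minus strand), a signalling chain of every T cell receptor, had 170, 153 and 166 CPM in IL-23-ear. In imiquimod-dorsal it had 26.0, 17.1, 16.6 and 17.1 CPM, for a log2 difference of 3.09 (SE 0.23, adjusted p = 6.7e-07). The groups were far apart, and imiquimod-dorsal replicate 2 stood above its group. Cd8a, the coreceptor of cytotoxic T cells, had 147, 137 and 152 CPM against 17.4, 13.2, 13.6 and 13.7 CPM, a log2 fold change of 3.32 (SE 0.26). Cd4, the coreceptor of helper T cells, had 190, 160 and 179 CPM against 49.6, 43.8, 41.8 and 51.0 CPM, a log2 fold change of 1.92 (SE 0.17). Cd4 is also found on dendritic cells, and the difference between the steps of Cd4 and Cd8a was not tested. Control means were 120 CPM for Cd3e and 143 CPM for Cd4, below the IL-23-ear values of both genes.

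Il7r, the survival receptor of resting T cells, had 261, 160 and 183 CPM against 16.1, 12.6, 11.8 and 12.8 CPM (log2 fold change 3.92, SE 0.24, adjusted p = 3.1e-07), the widest step of a T cell gene named here. Of 12 naive T cell and homing genes 11 were higher (median 1.39), among them Tcf7, a factor of resting T cells, at 2.78 and Ccr7, the receptor that leads cells into the white pulp, at 1.64. Of 13 regulatory T cell and checkpoint genes 10 were higher and 0 lower (median 1.21). Foxp3, which defines regulatory T cells, had 16.9, 13.7 and 14.2 CPM against 8.88, 4.42, 4.91 and 4.43 CPM (1.40, SE 0.26, adjusted p = 4.6e-04). Of 19 NK and cytotoxic genes 15 were higher and 1 lower, with a median of 1.73. Prf1, the pore former of killer cells, had 33.9, 35.6 and 39.2 CPM against 10.0, 7.14, 7.97 and 6.84 CPM (2.18, SE 0.21), and the NK receptor Ncr1 differed by 1.80. Gzmb, a granule protease, overlapped between the groups and did not pass (0.48, SE 0.30, adjusted p = 0.20).

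The genes on which IL-23 acts were read from a list of type 17 receptors, regulators and cytokines. Of 20 tested members 11 were higher and 2 lower, beside 27.1% and 30.0% of all tested genes. Under total count scaling, which shifts all genes upwards, 17 were higher and 0 lower. Relative to the control mean, the list level lay at -0.161 to -0.042 in IL-23-ear and at -0.959 to -0.512 in imiquimod-dorsal. Il23r, the specific receptor chain, had 1.07, 0.457 and 1.09 CPM in IL-23-ear against 0.596, 0.384, 0.553 and 0.285 CPM in imiquimod-dorsal, and its difference of 0.93 (SE 0.43, adjusted p = 0.080) did not pass. It passed under total count and under upper quartile scaling and without IL-23-ear replicate 2. Il17a had no count in any library and Il22 none in IL-23-ear, which allows up to 3 counts per library, so neither was detectable in IL-23-ear at this depth. Stat3, the transducer of IL-23 and IL-6, was higher at 206, 231 and 220 CPM against 194, 121, 150 and 155 CPM (0.50, SE 0.12, adjusted p = 0.0032), Il6ra at 1.01 and the ligand-activated factor Ahr at 0.95. For these 3 genes the control means of 220, 100 and 17.7 CPM lay close to IL-23-ear.

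Conventional dendritic cell genes lay on the higher side, and plasmacytoid ones were less uniform. Of 18 tested conventional dendritic cell genes 14 were higher and 2 lower, with a median of 1.04. Clec9a, a receptor for dead cells on cross-presenting dendritic cells, had 24.8, 20.0 and 21.2 CPM against 8.63, 6.92, 6.34 and 7.75 CPM (log2 fold change 1.57, SE 0.19, adjusted p = 1.3e-05). Cd209a, a lectin of the monocyte-related subset, had 14.1, 10.7 and 15.2 CPM against 0.993, 1.34, 0.390 and 0.696 CPM, the largest step of the list (3.95, SE 0.51). Flt3, the growth factor receptor of the lineage, differed by 1.39. Of 11 plasmacytoid dendritic cell genes 6 were higher and 1 lower, beside 27.1% and 30.0% of all tested genes. Siglech, a surface lectin of these cells, differed by 0.85 and Ccr9 by 1.03. The lowest difference of the list was -0.82. Summed over the 11 genes, the CPM overlapped between the groups, with 1050, 1100 and 1090 in IL-23-ear against 1190, 884, 1290 and 1240 in imiquimod-dorsal.

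Macrophage genes did not move as a block. Of 16 red pulp macrophage genes 4 were higher and 4 lower, where 27.1% and 30.0% of all tested genes were. The iron exporter Slc40a1 had 306, 339 and 322 CPM against 325, 400, 274 and 318 CPM, a log2 difference of -0.03 (SE 0.18, adjusted p = 0.90), and the lineage factor Spic one of 0.29 (adjusted p = 0.29). Blvrb, a biliverdin reductase that red cells also carry, was lower at -3.15 (SE 0.33). In the marginal zone, the rim of the white pulp, Cd209b, a lectin of its macrophages, had 21.8, 28.8 and 24.0 CPM against 3.72, 5.57, 2.34 and 4.62 CPM (2.61, SE 0.32, adjusted p = 1.8e-05). Siglec1, which marks the neighbouring metallophilic macrophages, differed by 1.65 (SE 0.19), while Marco overlapped between the groups (0.55, adjusted p = 0.17). Of 12 monocyte genes 2 were higher and 2 lower, beside the same shares of all tested genes. Ly6c2, a marker of classical monocytes that T cells and interferon-treated cells also carry, had 111, 152 and 156 CPM against 26.8, 25.5, 21.4 and 23.5 CPM (2.52, SE 0.21), and F13a1, a transglutaminase of monocytes, was lower at -1.64.

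Genes of complement and of antibody receptors lay on both sides. Of 19 tested members 7 were higher and 7 lower, beside 27.1% and 30.0% of all tested genes. Fcgr4, an activating receptor for IgG on myeloid cells, had 15.5, 22.6 and 22.4 CPM against 160, 70.8, 85.8 and 96.3 CPM (-2.36, SE 0.30, adjusted p = 3.3e-05), and Itgam, a complement receptor chain of granulocytes and monocytes, differed by -2.20 (SE 0.17). C4b, a complement component, was higher with 461, 493 and 478 CPM against 163, 146, 144 and 170 CPM (1.62, SE 0.12, adjusted p = 3.5e-07), and C2 differed by 1.59. The 7 lower members encode cell surface receptors, and 5 of the 7 higher members secreted components, the others being the receptor genes Fcgr1 (1.22) and Fcrl1 (0.75).

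On the lower side stood the red cell genes. Haemoglobin genes held 1.12%, 1.42% and 0.343% of the counts in IL-23-ear and 8.74%, 10.4%, 8.39% and 6.69% in imiquimod-dorsal, with a control mean of 2.45% (SD 1.53, n = 3) and an exact two-sided permutation p of 0.0571 for the 2 groups, the smallest possible. All 8 tested globin genes, 13 of 13 heme synthesis genes, 8 of 8 iron uptake genes, 10 of 12 erythroid transcription factors and 18 of 18 genes of the red cell membrane and skeleton were lower in IL-23-ear, where 30.0% of all tested genes were. Their median log2 differences were -4.30, -3.54, -2.72, -3.43 and -5.08. For the globins the median was -3.61 when the 2 embryonic genes without a count in IL-23-ear were set at their bound. Without IL-23-ear replicate 3 the counts of lower members were the same in all 5 lists, and the medians were -3.84, -3.38, -2.56, -3.24 and -4.60.

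Slc4a1 (chr11:102239650-102257029, GRCm39, minus strand), the anion exchanger band 3 and most abundant protein of the red cell membrane, had 83.7, 145 and 3.81 CPM in IL-23-ear replicates 1, 2 and 3. In imiquimod-dorsal it had 3784, 5562, 3540 and 3133 CPM, with control and imiquimod-ear means of 179 and 387 CPM. The log2 fold change was -5.69 (SE 1.15, adjusted p = 0.0012), and -5.09 without IL-23-ear replicate 3. Alas2, the rate-limiting enzyme of erythroid heme synthesis, had 102, 144 and 25.5 CPM against 1282, 1776, 1224 and 981 CPM (-3.87, SE 0.77, adjusted p = 0.0011). The adult globin Hbb-bs, which shares sequence with its neighbours in the cluster, differed by -3.18 (SE 0.70, adjusted p = 0.0022) and by -2.75 without IL-23-ear replicate 3. IL-23-ear replicate 3 was the lowest library for all 3 genes, and the groups did not overlap with or without it.

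Genes that act in earlier erythroid cells lay on the same side, with a few exceptions. Tfrc (chr16:32427556-32451612, GRCm39, plus strand), the transferrin receptor by which erythroblasts take up iron, had 96.2, 125 and 81.5 CPM against 1467, 2160, 1825 and 1534 CPM (-4.11, SE 0.42, adjusted p = 6.9e-06). Erfe, the hormone by which erythroblasts lower hepcidin, was almost absent from IL-23-ear with 0.261, 0.200 and 0 CPM, against 20.3, 67.6, 50.6 and 60.7 CPM in imiquimod-dorsal. Gata1, the master factor of the lineage, had 12.6, 21.6 and 9.21 CPM against 218, 272, 244 and 220 CPM (-4.04, SE 0.51), and Klf1, the factor that activates adult beta globin, 11.7, 18.6 and 3.51 CPM against 321, 461, 388 and 310 CPM (-5.04, SE 0.82). Ldb1 and Cbfa2t3, cofactors found in many blood cells, did not pass, at 0.00 and 0.21. Epor, the erythropoietin receptor, was lower at -3.76 (SE 0.55) and its targets Bcl2l1 and Pim1 at -2.14 and -1.69, while Jak2 and Stat5a, the kinase and the factor behind the receptor, did not pass (0.16 and 0.05). Hbb-y, an embryonic globin, had no count in IL-23-ear and 0.352 to 2.44 CPM in imiquimod-dorsal, at least 18.5-fold lower against a floor of 3 counts per library.

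Promoters of 29 of the 39 genes of the heme, iron uptake and membrane lists were matched in the RefSeq table. AGATAA, a site bound by GATA factors, was found on either strand in 7 of the 29 (24.1%), against 960 of 11450 tested genes (8.38%), and CCACACCC, a box bound by KLF1, in 1 (3.45%) against 4.57%. The 250 bases before the start are shown for Epb42 and Rhd, a skeleton and a blood group protein. They were picked as the called members with the largest differences among those with an AGATAA match there. Capitals mark AGATAA or its reverse complement, 226 bases before the start in Epb42 (chr2:121036878-121037127, GRCm38.p6, minus strand) and 43 in Rhd (chr4:134864286-134864535, GRCm38.p6, plus strand).
Epb42: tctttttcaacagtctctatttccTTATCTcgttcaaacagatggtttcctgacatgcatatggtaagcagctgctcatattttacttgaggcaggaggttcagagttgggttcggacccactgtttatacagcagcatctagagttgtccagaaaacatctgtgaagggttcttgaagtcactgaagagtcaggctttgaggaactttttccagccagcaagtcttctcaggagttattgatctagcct
Rhd: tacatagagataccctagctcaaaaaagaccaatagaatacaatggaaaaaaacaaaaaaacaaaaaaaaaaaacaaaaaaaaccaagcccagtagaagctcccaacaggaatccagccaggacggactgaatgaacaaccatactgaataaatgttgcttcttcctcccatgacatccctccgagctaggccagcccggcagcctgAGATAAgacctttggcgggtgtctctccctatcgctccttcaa
Epb42 had 7.38, 12.3 and 0.278 CPM in IL-23-ear against 234, 365, 233 and 196 CPM in imiquimod-dorsal (log2 fold change -5.27, SE 1.03). Rhd had 14.4, 23.7 and 3.92 CPM against 489, 620, 483 and 408 CPM (-5.16, SE 0.79). Both show the order of the red cell lists, with IL-23-ear replicate 2 the highest and replicate 3 the lowest of their group.

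Cell division genes were lower without exception in 2 lists: 26 of 26 DNA replication genes (median -2.17) and 28 of 28 mitosis and kinetochore genes (median -3.19). Mki67 (chr7:135291513-135318299, GRCm39, minus strand), a chromosome surface protein of dividing cells, had 112, 172 and 111 CPM in IL-23-ear. Its imiquimod-dorsal values were 1789, 2252, 1617 and 1579 CPM, and its control and imiquimod-ear means 168 and 550 CPM (log2 fold change -3.78, SE 0.36, adjusted p = 3.9e-06). Pcna, the sliding clamp of DNA polymerases, had 196, 238 and 218 CPM against 896, 1011, 940 and 885 CPM (-2.10, SE 0.23). TTTGAA, the letters of the cell cycle homology region, stood on either strand in the promoters of 17 of 24 matched mitosis genes (70.8%) and 4 of 20 replication genes (20.0%), against 14.9% of tested genes.

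Of 20 G1 cyclins, inhibitors and E2F factors 15 were lower and 3 higher. The lower ones include Cdkn2c, an inhibitor of CDK4 and CDK6, with 15.0, 15.1 and 14.0 CPM against 120, 133, 111 and 118 CPM (-3.03, SE 0.20, adjusted p = 3.1e-07), and E2f8, a repressor of the E2F family, at -4.07. The D cyclins split. Ccnd3 was lower at -1.60, whereas Ccnd2, with 325, 360 and 440 CPM against 157, 122, 146 and 149 CPM, was higher at 1.39 (SE 0.11), and Ccnd1 at 0.84. Red cell precursors, granulocyte precursors and activated lymphocytes all divide, and which of them carried these transcripts was not tested.

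**Figure D4:**
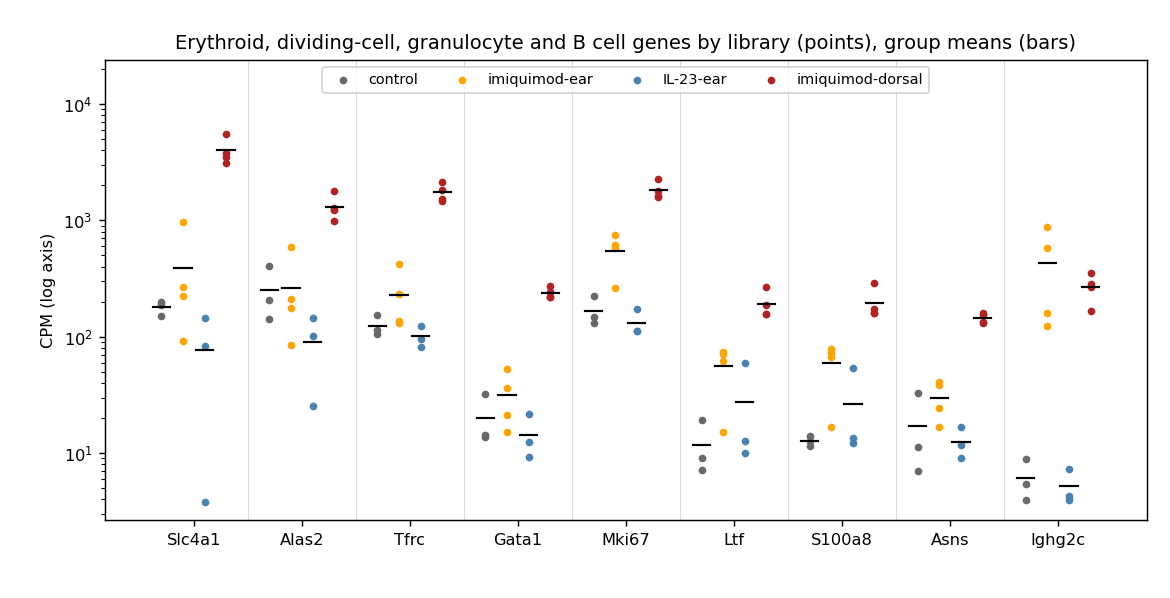
CPM (logarithmic axis) of 9 red cell, division, granulocyte, stress and B cell genes (horizontal axis) in the 4 groups, with 1 point per library and a short bar at each group mean. For Tfrc the IL-23-ear libraries lie between 81.5 and 125 CPM and the imiquimod-dorsal libraries between 1467 and 2160 CPM, and IL-23-ear replicate 3 is the lowest of its group in the red cell genes.

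Neutrophil genes were lower as well. Of 11 primary granule genes 8 were lower and 1 higher (median -3.32), of 12 secondary and tertiary granule genes 12 were lower (median -2.38), and of 19 genes of mature neutrophils 15 were lower and 2 higher (median -1.49). Primary granules are filled first and the mature genes are switched on last, and the differences between the 3 medians were not tested. Mpo, the peroxidase of primary granules, had 6.76, 28.7 and 7.82 CPM against 172, 213, 155 and 142 CPM (-3.56, SE 0.59, adjusted p = 2.8e-04). Ltf, lactoferrin of secondary granules, had 10.1, 60.0 and 12.7 CPM against 157, 267, 186 and 156 CPM (-2.80, SE 0.72, adjusted p = 0.0056). S100a8, a chain of calprotectin, had 13.5, 53.5 and 12.1 CPM against 161, 288, 174 and 161 CPM (-2.90, SE 0.62, adjusted p = 0.0018).

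IL-23-ear replicate 2 was the highest of its group in Mpo, Ltf and S100a8. Without it the log2 fold changes were -4.51, -4.04 and -3.90, and the medians of the primary, secondary and mature lists -4.26, -2.97 and -1.65, with 8, 12 and 14 lower members. The call of Camp, an antimicrobial peptide of secondary granules (-2.31), was lost without IL-23-ear replicate 1 or replicate 3. Stfa2, a neutrophil cysteine protease inhibitor, had no count in IL-23-ear and 2.02 to 3.69 CPM in imiquimod-dorsal, at least 34.1-fold lower against the floor. Gfi1, a repressor at the base of the lineage that lymphocytes also use, was higher at 0.67. Among basophil, mast cell and eosinophil genes 5 of 15 were lower and 1 higher, where 30.0% and 27.1% of all tested genes were. Mcpt8, a basophil protease, differed by -2.45, and Il5ra, the eosinophil and B1 cell receptor for IL-5, was higher at 1.65. Of 15 megakaryocyte and platelet genes 1 was lower and 0 higher, with Pf4 and Itga2b, a platelet chemokine and integrin, not passing. The number of lower genes was 4 without IL-23-ear replicate 2, 3 without imiquimod-dorsal replicate 2 and 0 without IL-23-ear replicate 1 or replicate 3. Of 12 stem and progenitor genes 5 were higher and 2 lower, or 8 and 2 under total count scaling, beside 27.1% and 30.0% of all tested genes in the main fit. Procr differed by 1.05 and Myb by -0.89, and the lowest difference of the list was -2.83.

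**Figure D5:**
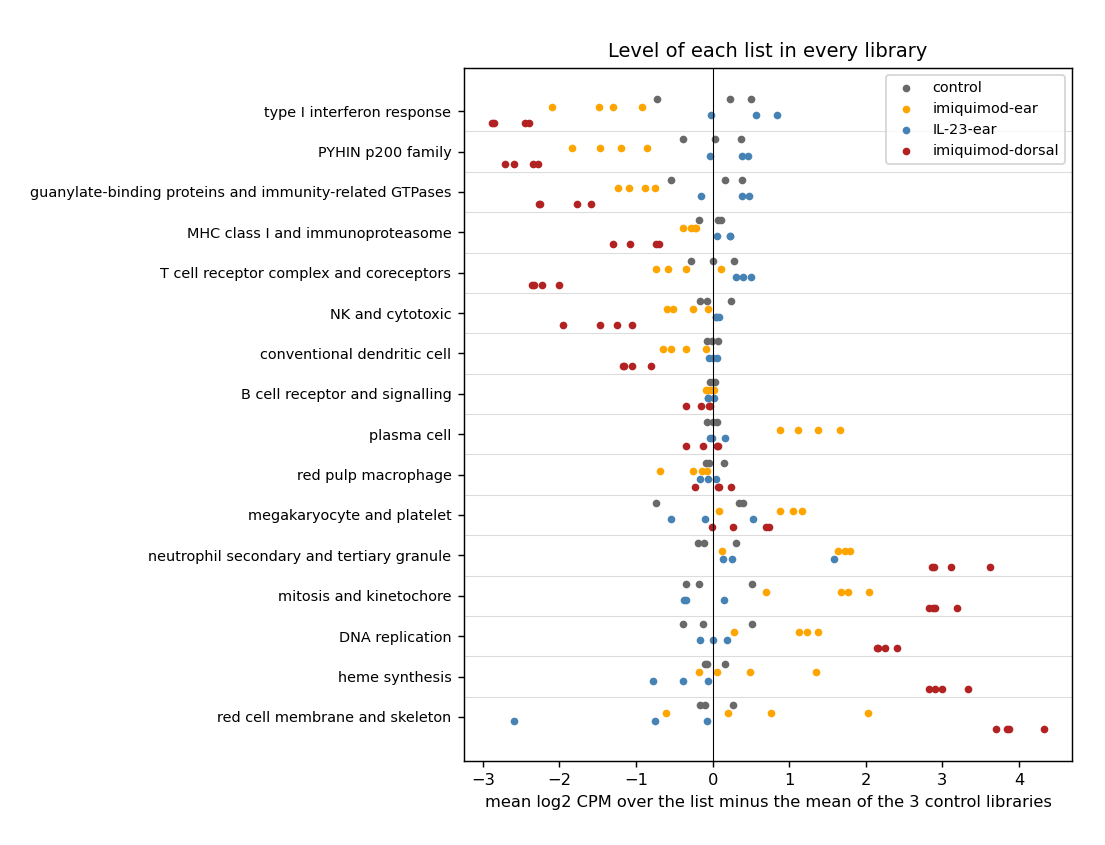
Level of gene lists (rows) in each of the 14 libraries, as the mean log2 CPM of the list's tested genes minus the mean of the 3 control libraries (horizontal axis), with 1 point per library coloured by group. For the red cell membrane list, the imiquimod-dorsal libraries lie 3.70 to 4.33 above the control mean, and the IL-23-ear libraries lie between -2.60 and -0.08 on that axis.

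B cell genes differed little in level. Of 19 B cell receptor and signalling genes 6 were higher and 5 lower with a median of 0.05, beside 27.1% and 30.0% of all tested genes. Under total count scaling 10 were higher and 0 lower. Ms4a1, which encodes CD20, differed by 0.13 and did not pass. Larger steps were found for Fcmr, the receptor for IgM, with 655, 683 and 615 CPM against 242, 302, 270 and 286 CPM (1.24, SE 0.08, adjusted p = 3.1e-07), and Cr2, the complement receptor of marginal zone and follicular B cells, with 536, 625 and 594 CPM against 208, 180, 306 and 227 CPM (1.34, SE 0.14). Of 15 marginal zone and follicular genes 8 were higher and 0 lower, or 13 and 0 under total count scaling, with the Notch target Dtx1 at 1.08.

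Of 12 immunoglobulin constant genes 3 were lower and 1 higher, where 30.0% and 27.1% of all tested genes were, and 6 were lower without imiquimod-dorsal replicate 3. The 3 lower genes were Ighg2b, Ighg2c and Ighg3, which encode class-switched antibodies. Immunoglobulin genes held 1.69% of counts in IL-23-ear (SD 0.184, n = 3) and 1.72% in imiquimod-dorsal (SD 0.360, n = 4), ranges that overlapped (exact two-sided permutation p = 0.857), beside 3.75% in imiquimod-ear (SD 0.606, n = 4). Ighg2b had 19.3, 27.1 and 20.1 CPM in IL-23-ear against 486, 320, 479 and 464 CPM in imiquimod-dorsal, a log2 difference of -4.30 (SE 0.46, adjusted p = 9.2e-06), with control and imiquimod-ear means of 26.9 and 245 CPM. Ighg2c had 7.31, 3.97 and 4.29 CPM against 350, 165, 286 and 270 CPM (-5.69, SE 0.77, adjusted p = 6.8e-05). BALB/c mice are known to carry an allelic form of the latter gene, named Ighg2a, so its reads were matched to a reference of another allele and their number is uncertain. Ighg3 was lower at -0.99 (SE 0.28), while Ighg1 (-1.07, adjusted p = 0.074), Ighm (-0.34, adjusted p = 0.077) and Igha (0.55, adjusted p = 0.17) did not pass.

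Of 13 tested germinal center genes 7 were higher and 2 lower, where 27.1% and 30.0% of all tested genes were. Among the higher were Bcl6, the master factor of these cells, at 0.52, Fas at 1.03 and Gcsam at 1.09. Differences in the list ran from -2.52 to 1.99, and its level overlapped between the groups. Of 18 plasma cell genes 4 were higher and 1 lower, beside the same shares of all tested genes. The lower one was Tent5c, a poly(A) polymerase that red cell precursors also express, at -2.27. Jchain, which joins secreted IgM and IgA, differed by 0.13 and did not pass, nor did Sdc1 and Xbp1. Heavy chain variable segments were lower for 44 of 90 and higher for 0 (median -0.84), and for 22 and 1 under total count scaling. Without IL-23-ear replicate 3 the segments were lower for 23 of 94 tested. Kappa segments were lower for 10 and higher for 3 of 98, beside 30.0% and 27.1% of all tested genes. Under total count scaling 5 were lower and 7 higher.

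Chemokines that build the white pulp were higher for 9 of 13 tested and lower for 1. Ccl21a (chr4:42772859-42773995, GRCm39, minus strand), made by stromal cells of the T cell zone, had 923, 570 and 760 CPM against 153, 172, 160 and 171 CPM (2.2, SE 0.37, adjusted p = 3.2e-04), and Ccl19, its partner as a ligand of CCR7, 99.3, 77.8 and 133 CPM against 38.5, 14.0, 21.2 and 20.8 CPM (2.13, SE 0.30). Cxcl13, which attracts B cells, differed by 0.72 (SE 0.11). The Ccl21 genes are near-identical copies. One of them, Ccl21d, chosen after its values were seen, had 27.9, 20.5 and 24.1 CPM against 1.28, 0.993, 5.24 and 1.36 CPM with a control mean of 4.33 CPM, so that here the control lay nearer to imiquimod-dorsal. Of 24 stromal and endothelial genes 10 were higher and 2 lower, beside 27.1% and 30.0% of all tested genes. Under total count scaling 20 were higher and 1 lower. Clu, a secreted chaperone, differed by 1.00 and Acta2, smooth muscle actin, by -1.05.

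Inflammatory chemokines were higher for 8 and lower for 2 of 18, where 27.1% and 30.0% of all tested genes were. Cytokines were higher for 5 and lower for 2 of 18, the share of higher ones being near that of all tested genes, and for 8 and 1 under total count scaling. Cxcl10, an interferon-induced attractant of T cells, had 30.0, 94.3 and 67.6 CPM against 9.85, 6.24, 5.53 and 6.23 CPM (3.19, SE 0.44), and Cxcl9, a related ligand, differed by 1.56. Il15, which keeps NK and memory T cells alive, had 5.64, 9.70 and 6.21 CPM against 1.59, 2.24, 1.46 and 1.77 CPM (2.02, SE 0.33), and Tnfsf13b, the B cell survival factor BAFF, differed by 1.48. Il6, an inducer of type 17 cells and of acute phase proteins, was lower with 0.339, 0.285 and 0.390 CPM against 2.87, 0.576, 2.57 and 2.12 CPM (-2.58, SE 0.69, adjusted p = 0.0056), low values in both groups. Il1b and Tnf did not pass.

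Genes of stress responses were read last. Of 15 integrated stress response genes 8 were lower and 0 higher (median -0.71). Asns, asparagine synthetase, had 11.6, 16.8 and 9.16 CPM against 132, 160, 155 and 133 CPM (-3.54, SE 0.52, adjusted p = 1.1e-04), and Atf4, the factor behind the response, 163, 174 and 182 CPM against 342, 374, 318 and 324 CPM (-0.97, SE 0.11). Glucocorticoid-responsive genes were higher for 6 of 9 and lower for 0 (median 1.08), with Tsc22d3 at 1.83, the kinase Sgk1 at 1.35 (SE 0.17) and the clock gene Per1 at 1.04.

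Heat shock genes depended on 1 library. Of 13 tested 8 were higher and 0 lower, but without IL-23-ear replicate 3 there were 5 higher and 3 lower, and with limma-voom 5 higher. Hspa1a, the inducible HSP70 chaperone, had 7.78, 5.62 and 106 CPM in IL-23-ear against 2.61, 1.67, 2.24 and 1.17 CPM in imiquimod-dorsal (4.36, SE 1.00, adjusted p = 0.0029), and 1.84 without that library. Its close copy Hspa1b had 12.3, 9.70 and 150 CPM. Of 19 genes of the unfolded protein response of the endoplasmic reticulum 3 were higher and 2 lower. Among all tested genes the shares were 27.1% and 30.0%. Under total count scaling 10 of the 19 were higher and 1 lower, and 8 were higher in a fit of the 7 libraries alone. How the spleens were handled before extraction is not given in the sources used here, and its part in the heat shock values was not tested.

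Housekeeping families made small steps that depended on the scaling. Mitochondrial ribosomal protein genes were lower for 57 of 78 and higher for 2 (median -0.45), and for 26 and 6 under total count scaling. Nuclear genes of respiratory complex I were lower for 37 of 47 (median -0.50), or 21 under total counts, and proteasome subunits for 26 of 28 (median -0.74), or 20. The 13 genes that the mitochondrion itself encodes went the other way, 10 being higher and 0 lower with a median of 0.19. Here the control mean was nearer to IL-23-ear for 0 genes. The list level lay 0.310 to 0.328 above the control mean in IL-23-ear and 0.044 to 0.205 above it in imiquimod-dorsal. As a share of all counts, without TMM scaling, these genes held 3.53% in IL-23-ear (SD 0.0668, n = 3) against 2.47% in imiquimod-dorsal (SD 0.181, n = 4). The control mean was 2.93% (SD 0.161, n = 3). An exact two-sided permutation test of the 2 groups gave p = 0.0571, the smallest possible. Cytosolic ribosomal protein genes were split, with 16 higher and 16 lower of 96, beside 27.1% and 30.0% of all tested genes. Under total counts 57 were higher and 2 lower. The even split rested on single libraries, since 22 were higher and 5 lower without IL-23-ear replicate 1, and 15 higher and 6 lower without replicate 3. Histone genes, most of whose transcripts lack the poly(A) tail by which these libraries were made, were lower for 25 and higher for 3 of 50 (median -0.80), or 15 and 5 under total counts.

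Genes outside the lists above were among the largest falls. Apol11b, of the apolipoprotein L family, had 3.21, 2.60 and 0.863 CPM in IL-23-ear against 495, 155, 106 and 318 CPM in imiquimod-dorsal (-6.91, SE 1.18), and Apol8 differed by -5.98. Of 12 tested members of the family 5 were higher and 4 lower, beside 27.1% and 30.0% of all tested genes. Plek2, a pleckstrin relative that erythroblasts use, differed by -6.21, Btnl10, a butyrophilin-like gene, by -5.56 and Slc2a4, the insulin-dependent glucose carrier, by -5.41. Cdhr2, a cadherin of microvilli chosen after its values were seen, had 0, 0 and 0.111 CPM against 36.9, 40.1, 41.2 and 37.1 CPM, with hardly any spread in imiquimod-dorsal. Cldn2, a tight junction protein chosen in the same way, had no count in IL-23-ear and 2.08 to 13.4 CPM in imiquimod-dorsal, at least 109-fold lower against the floor.

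A few genes did not follow the control. Among the 4544 lower genes, 173 had a control mean nearer to imiquimod-dorsal, and among the 4107 higher genes 283. Vcl, which links integrins to actin and was chosen after its values were seen, had 31.0, 37.7 and 32.4 CPM in IL-23-ear against 80.9, 97.6, 77.0 and 70.6 CPM in imiquimod-dorsal and 52.7 CPM as the control mean (-1.27, SE 0.13).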

How the data were processed

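Whole spleen RNA of 14 mice was poly(A) selected and sequenced as unstranded libraries, in pairs of 150 bases, per the labels' protocols, so overlapping genes on opposite strands share counts. The authors deposited 1 table of raw read counts per gene and library. The submitters' processing notes list StringTie 2.2.1, HISAT2 2.2.1, fastp 0.23.2, DESeq2 1.38.3, featureCounts 2.0.3 (Subread) and GRCm39, with no role or setting for any. Which annotation was used, and how reads with several matches were counted, is not given in the sources used here. The table has 22740 entries, of which 624 assembled loci without a gene name (0.484% to 0.674% of counts per library) were left out; 520 of the 22116 others were named from GENCODE M39, which also gave GRCm39 coordinates.

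The test was the robust quasi-likelihood F test of edgeR 4.0.16 (R 4.3.3) with TMM scaling and filterByExpr at a minimum count of 10. A single fit held all 14 libraries, with 10 residual degrees of freedom, and the common biological coefficient of variation was 18.7%. The contrast is IL-23-ear minus imiquimod-dorsal. P-values were adjusted after Benjamini and Hochberg over the 15159 genes, with a threshold of 0.05, and an adjusted p in the text comes from edgeR where no tool is named. CPM are TMM-scaled, log2 CPM have a prior count of 2, and the SE of a log2 fold change is its size over the square root of F. A count of 0 allows up to 3 counts, or 0.0745 to 0.0885 CPM by library totals in the 7 libraries. This floor covers counting error only. Bounds on folds used it after TMM scaling, at 0.0783 to 0.0856 CPM in IL-23-ear and 0.0851 to 0.0976 CPM in imiquimod-dorsal. Of counts from 1 to 10, 59.1% to 60.9% were even in the 7 libraries, against 49.5% to 50.8% of counts from 11 to 200. Whether some fragments were counted as 2 reads was not tested. If they were, a count of 0 allows more than 3 counts and the fold bounds are too high.

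The comparison, the 53 gene lists and the 20 families were chosen with earlier results of these data known. The rule for named genes took the 12 largest rises and the 12 largest falls that passed, with non-overlapping groups and a mean log2 CPM not under 1, leaving aside predicted genes, pseudogenes and variable segments. To these it added, for lists with 3 or more calls, the 2 lowest adjusted p-values, and genes fixed by name. A few genes the rule took are left out of the text. Others are given as members of their list, and Ccl21d, Cdhr2, Cldn2 and Vcl were chosen after their values were seen. Alternatives were DESeq2 1.42.0, limma-voom (limma 3.58.1), RLE, upper quartile and total count scaling, scaling without haemoglobin and immunoglobulin genes, no minimum count or one of 50, only the 7 libraries, no imiquimod-ear libraries, the replicate number as a block, and each library left out. Promoters (RefSeq, GRCm38.p6) were searched from 250 bases before to 50 after the start.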

Additional observations from a re-analysis of the deposited data

Results flagged for a closer look

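In the imiquimod-dorsal group, the only one of the 2 with at least 4 libraries, each named gene, list level and share was checked for a library whose gap to its nearest neighbour takes up more of the group's range than a 95% critical value allows. Of 289 values checked 20 had such a library, where chance gives about 1 in 20. Imiquimod-dorsal replicate 2 was the highest library for T cell genes, with Cd3e at 26.0 CPM (others 16.6 to 17.1), Cd8a at 17.4 CPM, Foxp3 at 8.88 CPM, Pdcd1 at 7.35 CPM and T cell receptor genes at 0.00962% of counts (others 0.00796% to 0.00817%). The same library was the highest for Cxcl9 at 51.0 CPM (others 18.3 to 21.1), Cxcl10 at 9.85 CPM and Col1a1 at 197 CPM, and had the lowest level of mitochondrial ribosomal protein genes (5.24). Without it the log2 fold changes of Cd3e, Cd8a and Foxp3 were 3.27, 3.43 and 1.70.

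Imiquimod-dorsal replicate 3 was the highest for Ndc80 at 75.3 CPM (others 63.2 to 63.9), Mmp9 at 46.1 CPM (others 24.8 to 26.6), S100a8 at 288 CPM (others 161 to 174) and Ahr at 10.7 CPM. It was the lowest for Ighg2b at 319 CPM (others 464 to 486), H2-Aa at 762 CPM and the level of MHC class II genes (7.01). Imiquimod-dorsal replicate 4 was the highest for Fcer2a at 198 CPM (others 125 to 135). It was also the library of its group with high pancreas genes, with Ctrb1 at 94.8 CPM, Prss2 at 31.7 CPM and a level of the pancreas list of 5.55. The others of the group had 0 CPM for both genes and levels of -3.02 to -2.78.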

How the results depend on the processing

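Across 18 alternatives the counts over all genes, and those of lists with at least 50% of members called in 1 direction, were within 1.5 times those given in the report, except as follows. With total counts as the scaling, 6752 genes were higher and 2881 lower, 17 type 17 and 13 marginal zone and follicular B genes were higher, and 26 mitochondrial ribosomal, 21 complex I and 15 histone genes were lower. With a minimum count of 50, 14 histone genes were lower and 12 T cell receptor alpha and delta segments higher, fewer segments being tested. With limma-voom 5 heat shock genes were higher. Leaving out 1 library at a time gave 3805 to 4079 higher and 3805 to 4385 lower genes, and 5 to 8 higher heat shock genes, the fewest without IL-23-ear replicate 3. Of 54 list counts above 5 members 4 moved by over 1.5 times without a single library: heat shock, cytosolic ribosomal and heavy chain variable genes as given in the report, and zinc finger genes, lower for 44 and for 28 without IL-23-ear replicate 2. Of 55 list counts of 1 to 5 members 28 did so. DESeq2 called 4402 higher and 4533 lower. Of the genes reported by name 1 changed sign: Prss2, a pancreas gene with counts in imiquimod-dorsal replicate 4 alone within that group, ranged from -4.74 to 6.82 over the fits without 1 library, the latter without that one. Replicate numbers 2 and 3 occur in both groups, and deviations of same-numbered samples from their group means had r = -0.060 and -0.058. With only 2 such pairs, these values cannot tell whether the samples shared more than a number. A fit with that number as a block called 3576 genes higher and 4084 lower. The depth leaves genes under about 3 counts per library unresolved.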
